A study of Mus musculus with 2 samples.

Results

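The insulin-like growth factor (IGF) system was examined in RNA sequencing of cells labelled as mouse primary chondrocytes, as 10 genes of the deposited table of 22156 genes and assembled loci, found by their symbols. They were the ligand genes *Igf1* and *Igf2*, the receptor genes *Igf1r* and *Igf2r*, and the binding protein genes *Igfbp2*, *Igfbp3*, *Igfbp4*, *Igfbp5*, *Igfbp6* and *Igfbp7*. The study compared 1 control library with 1 *Myl3*-KO library. *Myl3*-KO animals carried Cre under the *Col2a1* promoter, which removes floxed *Myl3*, which encodes a myosin light chain, in cells that have used that promoter. The controls were *Myl3* flox/flox littermates by the study's methods and wild type by the labels, and all mice were on the C57BL/6J background. Cells came from cartilage of newborn mice, rib cartilage by the labels, and grew as a monolayer in medium with 10% fetal bovine serum. Whether a library held the cells of 1 animal or of several was not stated.

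IGF1 and IGF2 are small secreted hormones that promote growth and survival. Both act mainly through IGF1R, a receptor tyrosine kinase that signals through IRS adaptors, PI3K and AKT, while IGF2R binds IGF2 without such a kinase and takes it, together with enzymes that carry mannose 6-phosphate, to lysosomes. The binding proteins hold IGFs outside the cell, shield them from the receptor or bring them to it, and release them when proteases cut them. In cartilage, IGF signalling is known for driving growth of the growth plate and synthesis of matrix, and serum is itself a source of IGFs that mouse mRNA levels do not show.

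Sequencing gave 17612434.91 expected counts (estimated reads per gene) in the control library against 13477976.98 in *Myl3*-KO, so that a floor of 3 counts corresponds to 0.170 and 0.223 CPM (counts scaled to the total of the library). *Myl3* had 0 counts in both libraries, so the deleted gene gave no check of the labels. Of 11 chondrocyte markers, 4 (*Acan*, *Matn1*, *Matn3* and *Hapln1*) were at 0 in both libraries, and the list summed to 13.3 FPKM (a level per length of transcript and depth) in the control library against 10.5 in *Myl3*-KO. Most of this sum was *Sox9*, the gene of the main chondrocyte transcription factor, at 11.9 and 8.61 FPKM (log2 ratio -0.47, 95% interval -0.63 to -0.30), while *Col2a1*, the main cartilage collagen, had 30 and 27 counts and *Col11a1* 121 and 99. The 9 fibroblast and perichondrium markers summed to 3083 and 3460 FPKM, mostly from the collagen gene *Col1a2* (2252.9 and 2629.69 FPKM). *Col3a1* (448.5 and 438.58 FPKM), *Postn* (217.29 and 208.89) and *Col1a1* (144.87 and 161.24) came next. *Scx* had 365 and 306 counts, *Pdgfra* 120 and 140 and *Fap* 1 and 0, while *Thy1* and *Tnmd* were at 0. The defining matrix genes of cartilage were thus at 0 or low, and the abundance of the fibroblast list lay in its collagen genes and *Postn*. The markers therefore leave the identity of the labelled cells in doubt, and the levels below are those of the cells as labelled. Of the 8 muscle markers 6 were at 0 in both libraries, and the muscle, endothelial, immune and erythroid lists summed to between 0 and 1.59 FPKM in either library. The part of these differences in the results below was not tested. In bulk RNA, fewer cells of a type and less RNA per cell cannot be told apart.

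The IGF genes of these cultures were dominated by 1 binding protein gene, while both ligand genes were near or at the limit of detection. Per length of transcript, the order of levels in the control was *Igfbp3* (363 FPKM), *Igfbp6* (29.7), *Igf2r* (17.0), *Igfbp5* (8.49), *Igf1r* (5.84), *Igfbp4* (3.27), *Igfbp7* (0.69), *Igf1* (0.10) and *Igf2* (0.01), with *Igfbp2* listed at 0. In *Myl3*-KO the first 3 genes stood in the same order, at 290 FPKM for *Igfbp3*, 40.3 for *Igfbp6* and 22.0 for *Igf2r*. There *Igf1r* (7.73 FPKM) and *Igfbp5* (7.59 FPKM) had 95% counting intervals that overlapped, 7.30 to 8.18 and 7.001 to 8.21, so their order was not settled at this depth. The same held for *Igf1* (0.31 FPKM, 0.155 to 0.555) and *Igfbp7* (0.20 FPKM, 0.0412 to 0.584) in *Myl3*-KO. In the control, neighbours from *Igfbp3* down to *Igf1* had intervals that did not overlap, and those of *Igf1* (0.0532 to 0.171) and *Igf2* (0.000253 to 0.0557) did. Among all genes of the table ranked by FPKM, *Igfbp3* was at place 184 in the control library against 210 in *Myl3*-KO. These intervals, like all others given here, are exact and cover counting error only, since no genotype had a second library.

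**Figure D1:**
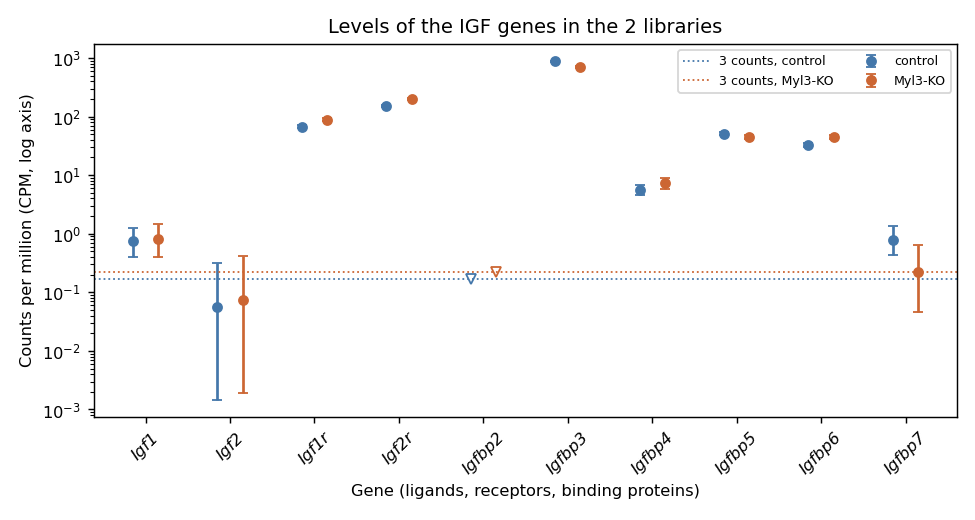
CPM (log axis) of the 10 IGF genes in the control (blue) and *Myl3*-KO (orange) library; bars are exact 95% Poisson intervals, dotted lines mark 3 counts, and open triangles on those lines mark a gene at 0. *Igfbp3* lies highest at 875 and 701 CPM, *Igf2* lies under the floor of 3 counts in both libraries and *Igfbp2* is at 0.

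Ratios of *Myl3*-KO over control were taken between CPM values, and a gene was called where they differed by at least 1.5-fold and the 95% Clopper-Pearson interval left out equality. Of the 10 IGF genes, 8 had the 10 counts over both libraries needed to enter, and 0 of these 8 were called. Over all 12431 genes that entered, 3.64% were called higher and 1.12% lower by the same rule. The median log2 ratio was 0.25 over the 8 IGF genes and 0.02 over all genes. That of the IGF genes lay between *Igf1* (0.14) and *Igfbp4* (0.36), whose intervals both held equality. Leaving the size of the ratio aside, the interval left out equality for 3 IGF genes that were higher (*Igf1r*, *Igf2r* and *Igfbp6*) and for 2 that were lower (*Igfbp3* and *Igfbp5*), against 22.2% of all genes higher and 20.1% lower. Such intervals narrow as counts rise, and these shares of all genes are not matched for counts. At a lower limit, a log2 ratio of 0.3219 in either direction, 3 of the 8 IGF genes were higher and 0 lower, against 9.47% and 5.44% of all genes. *Igfbp3* passed that limit downwards with TMM factors or DESeq2 size factors, at log2 ratios of -0.339 and -0.345. With 1 library per genotype these ratios have no replicate check and compare the libraries, not the genotypes.

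**Figure D2:**
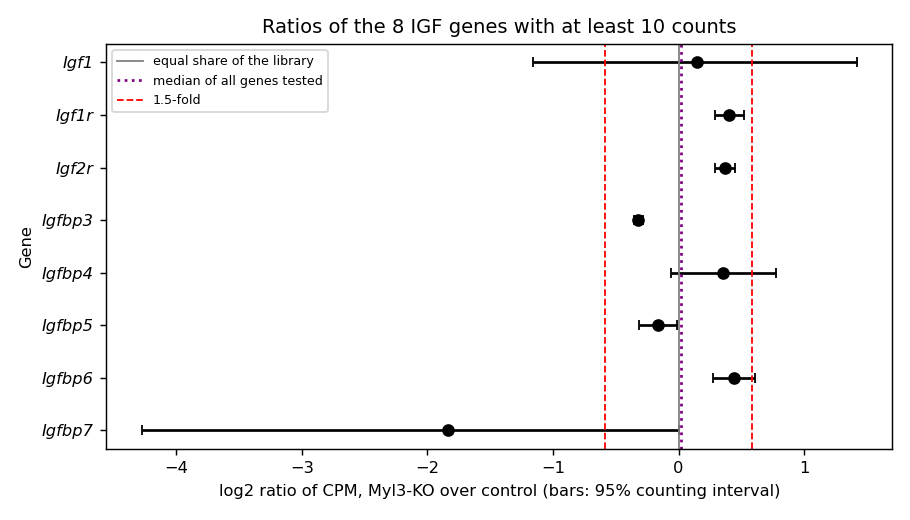
Log2 ratio of CPM, *Myl3*-KO over control, for the 8 IGF genes with at least 10 counts; bars are 95% Clopper-Pearson intervals, dashed lines mark 1.5-fold in either direction, the grey line equality and the dotted line the median of all genes (0.02). No point outside the dashed lines has an interval clear of equality: that of *Igfbp7*, at -1.84, reaches 0.00475.

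The ligand genes were, with *Igfbp2* and *Igfbp7*, the least counted of the system. *Igf1* (ENSMUSG00000020053, chromosome 10 from 87858265 to 87937042 of GRCm38) had 13 counts in the control library against 11 in *Myl3*-KO, or 0.738 and 0.816 CPM. Its log2 ratio was 0.14, with an interval of -1.16 to 1.42, so a change of 2-fold in either direction was not excluded at this depth. *Igf2* (ENSMUSG00000048583, chromosome 7 from 142650766 to 142666816), an imprinted gene known for high activity before birth, had 1 count in each library, under the floor, and no ratio was taken. *Gm49394*, a gene on the same strand that overlaps it, had 0 counts in both libraries, so no reads of *Igf2* were listed there.

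For *Igf1*, the deposited FPKM values and the counts differed. FPKM went from 0.10 to 0.31, a log2 ratio of 1.63, although the counts gave 0.14. The length by which a count must be divided to give the deposited FPKM was 7.38 kb in the control (7.03 to 7.77 kb given the rounding of FPKM) and 2.63 kb in *Myl3*-KO (2.59 to 2.68 kb). The 8 annotated transcripts of *Igf1* in GENCODE M21 are 0.51 to 7.05 kb long, so the rise in FPKM lies in the transcript length assigned to these reads and not in their number. A gap of this size between both ratios was found for 27 of 12421 genes (0.217%), of which 26 had at most 50 counts over both libraries. *Igfbp4* showed the same in small: its length went from 1.74 to 2.02 kb, and its log2 ratio from 0.36 by counts to 0.14 by FPKM. For *Igf1r*, *Igf2r*, *Igfbp3*, *Igfbp5* and *Igfbp6* both ratios were equal to 2 decimals.

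**Figure D3:**
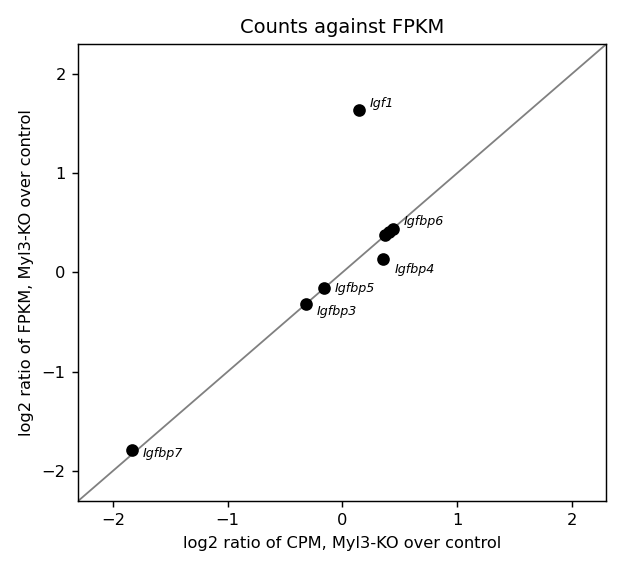
Log2 ratio of the deposited FPKM against log2 ratio of CPM, both *Myl3*-KO over control, for the 8 IGF genes with at least 10 counts; each point is a gene and the line marks equal values. *Igf1* lies off the line at 0.14 by counts and 1.63 by FPKM, *Igfbp4* slightly under it, and the others on or close to it; the unlabelled points beside *Igfbp6* are *Igf1r* and *Igf2r*.

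Both receptor genes were well counted and stood higher in *Myl3*-KO by nearly the same ratio. *Igf1r* (ENSMUSG00000005533, chromosome 7 from 67952827 to 68233668), the signalling receptor, had 1174 counts in the control library against 1189 in *Myl3*-KO, or 66.7 and 88.2 CPM. This was 1.32-fold higher, a log2 ratio of 0.40 (95% interval 0.29 to 0.52). *Igf2r* (ENSMUSG00000023830, chromosome 17 from 12682406 to 12769664), the mannose 6-phosphate receptor that clears IGF2, had 2664 and 2639 counts, or 151 and 196 CPM, 1.29-fold higher (log2 ratio 0.37, 95% interval 0.29 to 0.45). The raw counts of each were close between the libraries while the total of *Myl3*-KO was smaller, so each gene took a larger share of that library. The log2 ratios of *Igf1r* and *Igf2r* were 0.39 and 0.35 with TMM factors, and 0.38 and 0.35 with DESeq2 size factors. By library totals, the log2 ratios of both differed by 0.03 (95% interval -0.11 to 0.17). *Igf2r* stayed 2.91 times as high as *Igf1r* in FPKM in the control library against 2.85 times in *Myl3*-KO. The deposited pathway annotation lists *Igf1r* and *Igf2r* among the 276 genes of endocytosis, and *Igf2r* is also among the 124 genes of the lysosome. The *Airn* transcript, which is antisense to *Igf2r*, was not analysed here, and the strand used in counting is not given in the sources used here.

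Among the binding proteins ordered by FPKM, the most abundant gene, *Igfbp3*, was lower and the next, *Igfbp6*, higher. *Igfbp3* (ENSMUSG00000020427, chromosome 11 from 7206086 to 7213923), the main carrier of IGFs in serum, had 15417 counts in the control library against 9445 in *Myl3*-KO, or 875 and 701 CPM. In *Myl3*-KO it stood at 0.801 times its control level, a log2 ratio of -0.32 (95% interval -0.36 to -0.28). Unrounded, the ratio was -0.3209, just short of the lower limit of 0.3219. The same annotation places *Igfbp3* among the 174 genes of cellular senescence, as the only one of the 10 IGF genes, and with *Igf1* among the 67 of p53 signalling. *Igfbp6* (ENSMUSG00000023046, chromosome 15 from 102144362 to 102149511), which prefers IGF2 over IGF1, had 581 and 604 counts, or 33.0 and 44.8 CPM, and was 1.36-fold higher (log2 ratio 0.44, 95% interval 0.28 to 0.61). *Igfbp5* (ENSMUSG00000026185, chromosome 1 from 72857932 to 72874884), which binds to extracellular matrix, had 898 and 614 counts, or 51.0 and 45.6 CPM, with a log2 ratio of -0.16 (95% interval -0.31 to -0.01) that was near equality. *Igfbp4* (ENSMUSG00000017493, chromosome 11 from 99041244 to 99054392), the substrate of the protease pappalysin, had 100 and 98 counts, and its log2 ratio of 0.36 had an interval that held equality (-0.06 to 0.77).

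The remaining binding protein genes were hardly expressed. *Igfbp7* (ENSMUSG00000036256, chromosome 5 from 77349240 to 77408041), a relative with low affinity for IGFs, had 14 counts in the control library against 3 in *Myl3*-KO. It had the most distant ratio of the system, 3.57-fold lower, but its log2 ratio of -1.84 had an interval from -4.28 to 0.00475, which just held equality. With TMM factors or DESeq2 size factors in place of library totals the interval left out equality and *Igfbp7* was called lower, at log2 ratios of -1.85 and -1.86. Its locus overlaps *Polr2b* on the other strand, which had 5665 and 3768 counts, and without a known strand reads from the overlap could have been given to either. *Igfbp2* (ENSMUSG00000039323, chromosome 1 from 72824503 to 72852474) had 0 counts in both libraries, and the exact 95% interval of a count of 0 reaches 0.209 CPM in the control library against 0.274 CPM in *Myl3*-KO.

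The make-up of the binding protein mRNA shifted from *Igfbp3* towards *Igfbp6*. The 6 genes summed to 405 FPKM in the control library against 342 FPKM in *Myl3*-KO. *Igfbp3* made up 89.6% of the sum in the control library against 84.9% in *Myl3*-KO, and *Igfbp6* 7.33% and 11.8%. *Igfbp5* took 2.10% and 2.22%, *Igfbp4* 0.808% and 1.05%, and *Igfbp7* 0.170% and 0.0585%. By counts instead of FPKM, the share of *Igfbp3* was 90.6% in the control (exact 95% interval 90.2% to 91.1%) and 87.7% in *Myl3*-KO (87.1% to 88.4%). Set against the signalling receptor, *Igfbp3* was 62.1 times as high as *Igf1r* in FPKM in the control library against 37.6 times in *Myl3*-KO.

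**Figure D4:**
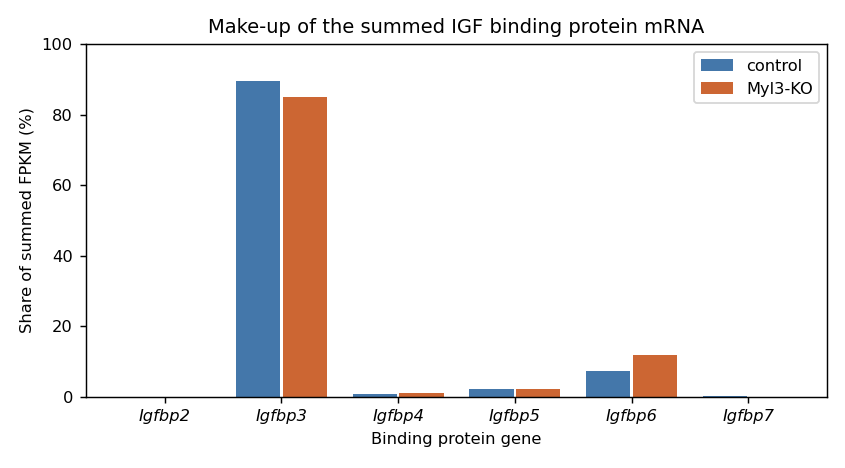
Share of each binding protein gene in the summed FPKM of the 6 genes (%), in the control (blue) and *Myl3*-KO (orange) library. *Igfbp3* holds 89.6% and 84.9%, *Igfbp6* 7.33% and 11.8%, and the other 4 genes at most 2.22% each.

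Since any scaling of the libraries moves all genes alike, the log2 ratios of the 6 genes with at least 100 counts were also set against each other within the libraries, over all 15 pairs. Sorted by these same ratios, a first set was relatively higher (*Igf1r*, *Igf2r*, *Igfbp4* and *Igfbp6*) and a second relatively lower (*Igfbp3* and *Igfbp5*). The sets were thus named from the values compared, so their separation adds nothing to the ratios themselves. The share of pairs apart among all genes was not computed. By the interval of the single ratio alone, 22.2% of all genes were higher and 20.1% lower, which is not a background for pairs. For the 6 pairs within the first set, the 95% interval of the difference held 0. For the other 9 pairs it did not, without adjustment for their number. The difference was 0.76 between *Igfbp6* and *Igfbp3* (95% interval 0.59 to 0.93), 0.73 between *Igf1r* and *Igfbp3* (0.60 to 0.85) and 0.60 between *Igfbp6* and *Igfbp5* (0.38 to 0.83). Between *Igfbp5* and *Igfbp3* it was only 0.16, with an interval (0.00335 to 0.31) close to 0.

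For *Igfbp3* and the higher genes with clear intervals, the 250 bases before the RefSeq start of the gene are shown, so that their promoters can be read side by side. *Igfbp5*, also lower but near equality, is not shown. The sequences are those of RefSeq on GRCm38.p6, 5′ to 3′ on the strand of the gene, and all 10 IGF genes matched an entry. For *Igf1r*, *Igf2r* and *Igfbp6* the RefSeq start lies upstream of the GENCODE gene bounds given above, so those windows do not adjoin them. Capitals mark exact matches on either strand to TATAAA (a form of the TATA box), GGGCGG (the GC box) and TGGGAA (the core bound by RBPJ, the DNA-binding partner of Notch). Other forms of these motifs were not searched, and no base lay in matches to 2 of them. The windows lie at chr11:7213924-7214173 on the minus strand for *Igfbp3*, chr15:102143936-102144185 on the plus strand for *Igfbp6*, chr7:67952007-67952256 on the plus strand for *Igf1r* and chr17:12769707-12769956 on the minus strand for *Igf2r*.
Igfbp3: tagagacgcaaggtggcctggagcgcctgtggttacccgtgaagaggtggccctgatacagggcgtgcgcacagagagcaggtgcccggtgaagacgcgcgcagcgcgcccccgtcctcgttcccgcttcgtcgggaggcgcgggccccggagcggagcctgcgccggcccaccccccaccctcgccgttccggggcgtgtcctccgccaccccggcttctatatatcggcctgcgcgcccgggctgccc
Igfbp6: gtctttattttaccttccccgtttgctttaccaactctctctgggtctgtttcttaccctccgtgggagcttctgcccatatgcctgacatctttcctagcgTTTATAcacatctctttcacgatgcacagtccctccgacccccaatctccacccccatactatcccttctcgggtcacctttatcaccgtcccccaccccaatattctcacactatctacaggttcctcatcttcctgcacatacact
Igf1r: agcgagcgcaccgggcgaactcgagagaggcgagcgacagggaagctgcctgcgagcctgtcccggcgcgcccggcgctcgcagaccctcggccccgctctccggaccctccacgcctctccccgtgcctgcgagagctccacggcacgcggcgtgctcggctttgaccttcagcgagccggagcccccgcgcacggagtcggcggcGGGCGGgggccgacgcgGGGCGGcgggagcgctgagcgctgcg
Igf2r: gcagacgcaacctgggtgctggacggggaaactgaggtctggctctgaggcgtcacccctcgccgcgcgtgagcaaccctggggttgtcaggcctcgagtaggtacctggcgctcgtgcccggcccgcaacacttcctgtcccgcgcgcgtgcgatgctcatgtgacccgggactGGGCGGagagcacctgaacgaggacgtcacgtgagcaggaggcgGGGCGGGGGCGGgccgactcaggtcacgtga

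The promoter windows of *Igf1r* and *Igf2r* held 2 and 3 GC boxes, 77.6% and 69.2% of bases were G or C, and neither held TATAAA. The window of *Igfbp3* was also rich in G and C (73.2%, with 32 CpG dinucleotides) but held no exact match to these motifs. It does hold the letters tatatat near its end beside the gene, which a search for TATAAA does not count. That of *Igfbp6* had 49.6% G and C, 7 CpG and 1 TATAAA match on the other strand. Over all 32851 promoter windows of this length the median was 52.4% G and C and 6 CpG. Of these windows 32.7% held a GC box, 12.4% TATAAA and 21.6% the RBPJ core. The RBPJ core was in none of the 4 windows shown, while windows of *Igf1* and *Igf2*, which are not shown, held it. The windows of *Igf1r* and *Igf2r* thus shared GC boxes and a high content of G and C, and that of *Igfbp6* had neither. Matches describe letters in the window, and the start sites used in these cells were not measured.

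Around the IGF genes, 6 lists of pathway genes held 80 genes of the table, of which 65 entered the comparison, 5 were called higher and 2 lower. The background stands at 3.64% higher and 1.12% lower. Of the genes that control how much IGF is free, 6 of 12 entered, with a median log2 ratio of -0.05. The other 6 had too few counts, and 4 of these, *Igfbp1*, *Igfals*, *Adam28* and *Klk10*, were at 0 in both libraries (named after their values were seen). *Stc2*, whose product stanniocalcin 2 inhibits pappalysin, had 98 counts in the control library against 39 in *Myl3*-KO and was called lower (log2 ratio -0.94, 95% interval -1.52 to -0.39). *Pappa*, the pappalysin gene itself, had 587 and 364 counts and a log2 ratio of -0.30 (95% interval -0.50 to -0.11), which was not called, and *Pappa2* one of -0.09. *Adam12*, a metalloprotease that can cut IGF binding proteins, had 30 and 47 counts and was called higher (log2 ratio 1.03, 95% interval 0.34 to 1.75). *Htra1*, a secreted protease, was the most counted gene of this list, with a log2 ratio of -0.01, and *Htra3* had 9 and 12 counts.

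Downstream of the receptor, 2 receptor signalling genes and 0 genes of the PI3K, AKT and mTOR route were called. Whether these lists differ was not tested. Of the 17 receptor signalling genes 14 entered, with a median of 0.11. Of these, 2 were called higher and 0 lower, against 3.64% and 1.12% of all genes. *Irs2*, an adaptor that links the IGF1 and insulin receptors to PI3K, had 491 and 595 counts (log2 ratio 0.66, 95% interval 0.49 to 0.84). *Socs1*, a suppressor of cytokine signalling, had 51 and 64 counts (log2 ratio 0.71, 95% interval 0.16 to 1.27). The adaptor gene *Shc1* had a log2 ratio of 0.42 and was not called, and *Grb2* (0.07), *Ptpn11* (-0.03) and *Inppl1* (0.11) were close to equality. Of the 23 genes of the PI3K, AKT and mTOR route all entered and 0 were called, against the same shares of all genes. Their median was 0.04. The kinase gene *Akt1* had a log2 ratio of 0.00, *Pik3r3*, a regulatory subunit of PI3K, one of 0.04 and the kinase gene *Gsk3b* one of 0.06. At any fold, 8 intervals of this list lay above equality and 3 below it. Of the 14 receptor signalling genes, 7 lay above and 1 below. Of all genes, not matched for counts, 22.2% lay above and 20.1% below.

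Of the 7 genes of the growth hormone axis, which drives *Igf1* in liver and growth plate, 6 entered. Of these, 2 were called higher, against 3.64% of all genes. *Socs2*, a feedback inhibitor of growth hormone signalling, had 40 and 65 counts (log2 ratio 1.09, 95% interval 0.50 to 1.69). Its FPKM ratio was only 0.40 on the log2 scale, under the line, so its call rests on counts. *Stat5a*, a transcription factor of this axis, had 38.19 and 71.29 counts (log2 ratio 1.29, 95% interval 0.70 to 1.90). Its counts and those of *Stat5b* (980.81 and 889.71) were not whole numbers, as happens where a counter shares reads out between near-identical genes, and the sum of both had a log2 ratio of 0.30 (95% interval 0.17 to 0.43). The call of *Stat5a* is therefore uncertain. The receptor gene *Ghr* had 238 and 198 counts and a log2 ratio of 0.12, *Jak2* one of -0.08 and *Cish*, another feedback inhibitor, one of 0.10.

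None of the 9 genes of the mannose 6-phosphate route, which shares IGF2R with IGF2, was called, and their median was 0.08. *M6pr*, the gene of the smaller mannose 6-phosphate receptor, had 4469 and 3044 counts and a log2 ratio of -0.17 (95% interval -0.23 to -0.10), on the other side of equality from *Igf2r*. *Gga3*, an adaptor of both receptors at the Golgi, had a log2 ratio of 0.24, *Ap1g1* one of -0.05 and *Gnptab*, which builds the mannose 6-phosphate tag, one of -0.06. Of 13 genes that bind *Igf2* mRNA or are imprinted, 12 were in the table used here and 7 entered, with a median of 0.07. Of these, 1 was called lower, against 1.12% of all genes. This was *Dcn*, the gene of the matrix proteoglycan decorin, with 631 counts in the control library against 155 in *Myl3*-KO (log2 ratio -1.64, 95% interval -1.90 to -1.38). *Igf2bp1*, which binds *Igf2* mRNA, had 813 and 669 counts at a log2 ratio of 0.10 while *Igf2* itself had 1 count in each library, and *Gnas* (0.02), *Plagl1* (0.07) and *Mest* (-0.22) were not called.

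**Figure D5:**
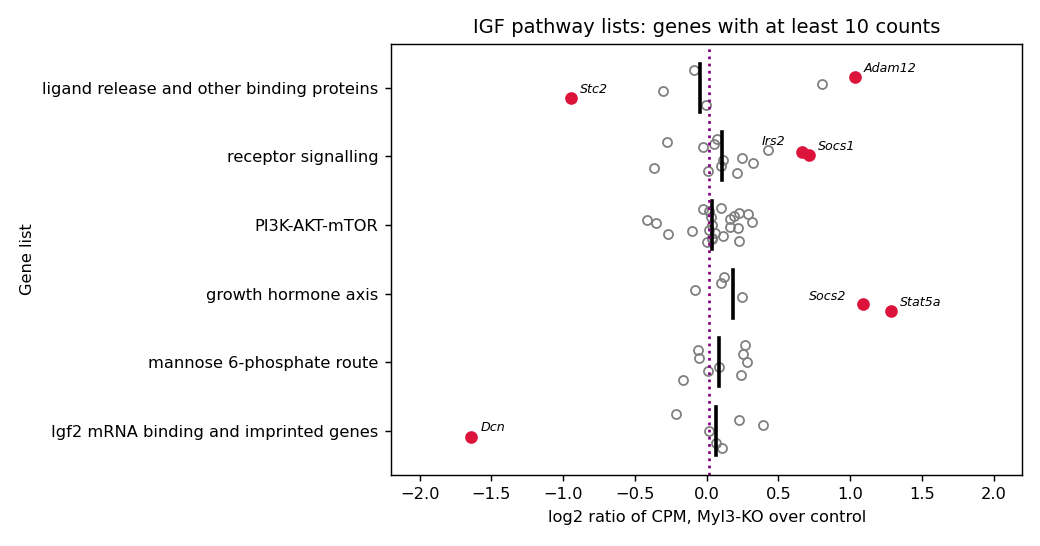
Log2 ratio of CPM, *Myl3*-KO over control, for each gene with at least 10 counts in 6 lists of IGF pathway genes; filled red points with names are called genes, open grey points the others, black bars the list medians and the dotted line the median of all genes (0.02). The 7 called genes are *Stc2* and *Dcn* to the left and *Adam12*, *Irs2*, *Socs1*, *Socs2* and *Stat5a* to the right, while the medians lie between -0.05 and 0.18.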

How the data were processed

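RNA sequencing of 1 control and 1 *Myl3*-KO library was analysed. The authors deposited an expected count per gene, not whole for 1438 genes of the control library and 1388 of the other, and an FPKM value rounded to few decimals. The processing notes name GRCm38 (mm10), and the aligner and counter are not given in the sources used here. The column headed NC was read as the control because the other is headed KO. CPM values used the library total, and counts under 3 were raised to 3 for ratios. Clopper-Pearson intervals (95%) used rounded counts. Genes with fewer than 10 counts over both libraries (9725) were left out. No test between genotypes was possible, and no p-value is given. The calling script was tested on simulated data. Coordinates and transcripts came from GENCODE M21.

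The 10 IGF genes, the pathway lists and the call rule were chosen with earlier results of these data known. All 10 genes are named, and of each list every called gene and up to 4 others with the highest counts, of which 1 gene is not reported here. The alternatives were TMM factors, DESeq2 size factors, 1 added count, FPKM ratios, other count filters, a lower limit and one of 2-fold, and edgeR's exact test. That test took an assumed coefficient of variation of 0.2 or 0.4. It called genes at an unadjusted p under 0.05 that also passed the 1.5-fold limit. The limit at any fold, the comparison of pairs and the sum of *Stat5a* and *Stat5b* were added after the data were seen. Python 3.11.15, numpy 2.4.6, pandas 2.3.3, scipy 1.17.1, matplotlib 3.10.9, R 4.3.3, edgeR 4.0.16 and DESeq2 1.42.0 were used.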

Additional observations from a re-analysis of the deposited data

How the results depend on the processing

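The number of IGF genes called was 0 and became 1 (*Igfbp7*, lower) with TMM factors or DESeq2 size factors, 3 at the lower limit (a log2 ratio of 0.3219) and 5 at any fold. It was 0 under the other alternatives. Of these, the count filters, the 2-fold limit and edgeR's exact test kept at least the 1.5-fold limit, which only *Igfbp7* passed by counts. For the other IGF genes these settings could thus add no call. FPKM ratios were taken with the intervals of the counts, so *Igf1*, whose interval held equality, could not be called by them. The number of pathway list genes called was 7 and became 4 at 2-fold, 11 at that lower limit, 32 at any fold, 3 (*Dcn*, *Socs2* and *Stat5a*) at an assumed coefficient of 0.2 and 0 with 0.4, by edgeR's exact test. The median log2 ratio of the IGF genes ranged from 0.23 with DESeq2 size factors to 0.26 with 1 added count. The share of *Igfbp3* in the binding protein sum, 89.6% and 84.9% by FPKM, moved to 90.6% and 87.7% by counts. Of the single ratios, that of *Igf1* moved outside its interval, to 1.63 by FPKM. No paired analysis was possible because each genotype had 1 library. At this depth *Igf1*, *Igf2*, *Igfbp2* and *Igfbp7* allow no firm statement.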
